A study of Arabidopsis thaliana with 27 samples.

Results

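The genes described here are 10 small auxin up RNA (SAUR) genes of Arabidopsis thaliana. They are SAUR61 (AT1G29420), SAUR62 (AT1G29430), SAUR63 (AT1G29440), SAUR64 (AT1G29450), SAUR65 (AT1G29460), SAUR68 (AT1G29490), SAUR66 (AT1G29500) and SAUR67 (AT1G29510), which form a tandem cluster on chromosome 1, and SAUR20 (AT5G18020) and SAUR21 (AT5G18030), which are neighbours on chromosome 5. They were taken by locus identifier from the 33602 loci counted in each library, and the list was chosen with earlier results of these data known. All 10 loci were present in the count files, and 3 of them passed the filter on low counts in stamens, 5 in gynoecia and 7 over both tissues.

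SAUR genes encode small plant proteins, and many of them are transcribed within minutes of auxin application. SAUR proteins of several clades bind and inhibit D-clade protein phosphatases (PP2C.D), which remove an activating phosphate from plasma membrane proton pumps. Active pumps acidify the cell wall and so favour cell expansion. Overproduced SAUR63 lengthens hypocotyls, petals and stamen filaments, and overproduced SAUR19, a close relative of SAUR20 and SAUR21, lengthens hypocotyls. Auxin Response Factor 6 (ARF6) and ARF8 are transcription factors with overlapping roles in stamen filament elongation, anther opening and gynoecium maturation. Their transcripts are cleaved under the guidance of the microRNA miR167, and Aux/IAA proteins such as AXR3 (IAA17) repress ARF activity until auxin triggers their degradation.

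The study counted messenger RNA reads in 27 libraries of hand-collected stamens and gynoecia from Columbia plants. Plants were grown under 14 h days and 10 h nights and harvested 1 to 3 h after dawn, stamens from stage 11 buds measuring 1.5 to 1.8 mm and gynoecia from stage 12 flowers, where the gynoecium was 0.9 mm to at most 1.4 mm long. Stamens came from the wild type (3 libraries), the arf6arf8 double mutant (2) and mARF8 plants (4), and gynoecia from the wild type (4), arf6arf8 (2), mARF8 (4), Pstk_axr3 plants (4, called axr3 here) and arf6 Pstk_axr3 plants (4, called arf6axr3). The sources name no arf6 or arf8 alleles. mARF8 is a genomic ARF8 transgene whose miR167 site is mutated: by their titles, the stamen libraries are line 3B (replicates 1 and 3), line 4B (replicate 2) and a pool of T1 plants (replicate 4), whereas 3 gynoecium titles name line 3B and 1 names no line. The axr3 transgene drives a stabilised AXR3 protein from the SEEDSTICK promoter, which is active in ovules and nearby carpel tissue, so only part of the gynoecium carries it. Titles put replicates 1 and 3 of arf6axr3 in line 15-5 and replicates 2 and 4 in line 25-2, while the title of axr3 replicate 3 names line 15-5, that of replicate 4 a cross of Columbia with line 25-2, and those of replicates 1 and 2 no line. The genotype tags of mARF8 stamens and of arf6axr3 give 1 line throughout, and the titles were followed. No label says whether the libraries of a group came from separate plants or harvests, so p-values measure the spread between these libraries.

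Library totals ranged from 3692975 to 15374607 counted reads, and 3 reads corresponded to 0.195 to 0.812 CPM (a gene's reads scaled to a common library total). The arf6arf8 gynoecium libraries were deeper (14586768 and 15005992 reads) than the wild-type gynoecium libraries (6177301 to 11821613). ARF6 averaged 508 CPM in wild-type gynoecia and 133 in arf6arf8 gynoecia, and 83.7 and 23.4 in the respective stamens, while ARF8 averaged 384 and 88.4, and 60.4 and 19.1. ARF8 averaged 1080 CPM in mARF8 gynoecia and 450 in mARF8 stamens, where replicates ranged from 255 to 555. AXR3 averaged 11.3 CPM in wild-type, 72.6 in axr3 and 31.2 in arf6axr3 gynoecia. The summed CPM of 2 stamen markers (AP3 and PI) was 824 to 1280 in stamens and 8.58 to 30.1 in gynoecia, and that of 6 gynoecium markers 235 to 509 in gynoecia and 11.3 to 20.9 in stamens, each with all genes of the list detected. In whole organs, fewer cells of a type and less RNA per cell cannot be told apart.

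In the TAIR10.1 assembly the cluster spans 21863 bp, chr1:10301377-10323239, with SAUR61 to SAUR65 on the minus strand, SAUR68, SAUR66 and SAUR67 on the plus strand, and 4 other protein-coding loci between them. SAUR20 lies at chr5:5966183-5966785 on the minus strand and SAUR21 at chr5:5968352-5969190 on the plus strand. Of the windows from 250 bases before to 50 bases after each annotated start, 4 of 10 held the auxin response element TGTCTC on either strand and 1 of 10 held TGTCGG, which ARF proteins bind with high affinity in vitro. Over 27443 protein-coding genes, 14.2% of such windows held TGTCTC, 5.12% TGTCGG and 18.7% at least 1 of them, and none of the 10 held the G-box CACGTG, found in 7.68% of all windows. The 250 bases before the start are shown for the genes with the most reads in gynoecia, with these elements in capitals, from the RefSeq annotation of TAIR10.1 and 5′ to 3′ on the strand of each gene.
SAUR66 (chr1:10320761-10321010, plus strand): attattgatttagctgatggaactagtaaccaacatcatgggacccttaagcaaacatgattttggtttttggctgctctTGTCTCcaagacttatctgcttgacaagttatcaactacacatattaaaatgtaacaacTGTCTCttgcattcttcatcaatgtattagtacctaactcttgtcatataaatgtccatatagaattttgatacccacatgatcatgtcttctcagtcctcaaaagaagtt
SAUR67 (chr1:10322173-10322422, plus strand): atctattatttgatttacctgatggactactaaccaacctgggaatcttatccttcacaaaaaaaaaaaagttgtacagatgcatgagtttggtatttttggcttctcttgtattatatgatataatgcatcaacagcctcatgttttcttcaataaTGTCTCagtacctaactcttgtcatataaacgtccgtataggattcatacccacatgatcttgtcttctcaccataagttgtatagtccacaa
SAUR63 (chr1:10305109-10305358, minus strand): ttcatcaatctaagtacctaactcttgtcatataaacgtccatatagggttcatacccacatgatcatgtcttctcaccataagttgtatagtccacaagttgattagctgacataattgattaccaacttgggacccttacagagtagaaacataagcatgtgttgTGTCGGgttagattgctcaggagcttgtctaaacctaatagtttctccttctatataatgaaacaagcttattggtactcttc
SAUR62 (chr1:10303419-10303668, minus strand): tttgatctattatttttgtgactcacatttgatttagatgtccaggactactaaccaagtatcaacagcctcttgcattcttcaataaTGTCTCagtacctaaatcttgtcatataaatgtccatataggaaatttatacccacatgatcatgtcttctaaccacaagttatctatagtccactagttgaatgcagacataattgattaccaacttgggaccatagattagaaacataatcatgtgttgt
SAUR21 (chr5:5968102-5968351, plus strand): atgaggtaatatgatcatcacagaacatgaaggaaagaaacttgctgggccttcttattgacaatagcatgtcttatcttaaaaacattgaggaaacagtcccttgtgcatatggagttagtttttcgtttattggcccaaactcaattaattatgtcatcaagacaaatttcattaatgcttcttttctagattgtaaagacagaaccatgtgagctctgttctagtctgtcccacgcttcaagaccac

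Counted from the annotated start, TGTCTC began at -170 and -111 in SAUR66, at -93 in SAUR67 and at -162 in SAUR62, and TGTCGG began at -83 in SAUR63. SAUR20 held TGTCTC on the opposite strand at -25, and SAUR21, SAUR61, SAUR64, SAUR65 and SAUR68 held neither element. SAUR63 and SAUR67 share a run of 82 identical bases, which lies from -183 to -102 in SAUR63 but from -32 to 50 in SAUR67. The annotated starts therefore sit at different places in related sequence, and positions are not directly comparable between the genes. No match says only that these letters are not in this window.

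The copies are alike enough that reads of 50 bases can be ambiguous, and how far this bears on the values below differs between genes. Coding sequences within the cluster were 81.6 to 93.1% identical (median 84.5% over 28 pairs), those of SAUR20 and SAUR21 were 93.3% identical, and cluster genes were 57.1 to 66.9% identical to that pair. The share of 50-base windows of the exons that occur once in the genome was 100% for SAUR61, SAUR64 and SAUR65, 99.6% for SAUR66, 99.4% for SAUR68, 94.8% for SAUR21 and 94.2% for SAUR20. It was lower for SAUR62 (76.8%), SAUR63 (72.9%) and SAUR67 (66.1%). The longest shared coding runs are shown because a read inside them cannot be assigned to 1 gene, the first between SAUR63 (coding bases 1 to 91) and SAUR67 (4 to 94), the second between SAUR62 (119 to 280) and SAUR75 on chromosome 5 (122 to 283), and the third between SAUR21 (61 to 146) and SAUR19 (67 to 152).
SAUR63 and SAUR67: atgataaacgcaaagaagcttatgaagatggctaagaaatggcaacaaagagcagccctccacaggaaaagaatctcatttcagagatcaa
SAUR62 and SAUR75: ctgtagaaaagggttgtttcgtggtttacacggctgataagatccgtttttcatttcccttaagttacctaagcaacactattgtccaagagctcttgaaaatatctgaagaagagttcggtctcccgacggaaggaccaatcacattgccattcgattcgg
SAUR21 and SAUR19: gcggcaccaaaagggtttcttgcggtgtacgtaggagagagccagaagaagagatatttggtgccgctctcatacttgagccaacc
The clade member outside the cluster, SAUR75 (AT5G27780), had 1 read in all 27 libraries together. How the submitters counted reads with several matches, and whether strand was used, is not given in the sources used here, so values of SAUR62, SAUR63 and SAUR67 are uncertain relative to each other and the cluster was also summed. Annotated genes on the opposite strand overlap SAUR61, SAUR63 and SAUR64, and reads from such a pair cannot be told apart without strand.

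In wild-type gynoecia most reads of the cluster came from SAUR66 and SAUR67. The summed cluster level was 17.6, 18.4, 13.8 and 13.7 CPM in the 4 libraries, from 603 reads. SAUR66 gave 59% of these reads (95% exact binomial interval 55 to 63%), SAUR67 24.9%, SAUR63 7.46% and SAUR62 6.14%, and the intervals of the other 4 genes reached at most 2.6%. Per kilobase of exon, SAUR66 stood at 10.2 ± 1.58 CPM (SD, n = 4), SAUR67 at 5.23 ± 1.02, SAUR63 at 2.14 ± 0.471, SAUR21 at 1.95 ± 0.596 and SAUR62 at 1.17 ± 0.701. SAUR20 followed at 0.746 ± 0.544, SAUR64 at 0.248 ± 0.19, and SAUR68, SAUR65 and SAUR61 at 0.0788, 0.075 and 0.0681. On this scale SAUR66 stood apart from SAUR67, and SAUR67 from SAUR63, by more than their SDs added together, whereas no other neighbours did. Per kilobase of windows that occur once in the genome, SAUR66 stood at 10.3, SAUR67 at 7.9 and SAUR63 at 2.94 CPM. The gap between SAUR66 and SAUR67 was smaller there, and whether it exceeds their spread was not computed.

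Wild-type stamens held fewer cluster reads at equal depth and spread them over other genes. The summed level was 3.26, 3.99 and 4.99 CPM, from 57 reads. SAUR61 gave 36.8% of them (24.4 to 50.7%), SAUR66 22.8%, SAUR63 14% and SAUR62 12.3%. Per kilobase of exon, SAUR61 led with 2.31 ± 1.01 CPM (SD, n = 3), followed by SAUR63 at 1.01 ± 0.263, SAUR66 at 0.963 ± 0.602, SAUR20 at 0.949 ± 1.02 and SAUR21 at 0.91 ± 0.0462. SAUR63, SAUR66, SAUR20 and SAUR21 did not stand apart from one another by more than their SDs added together.

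**Figure D1:**
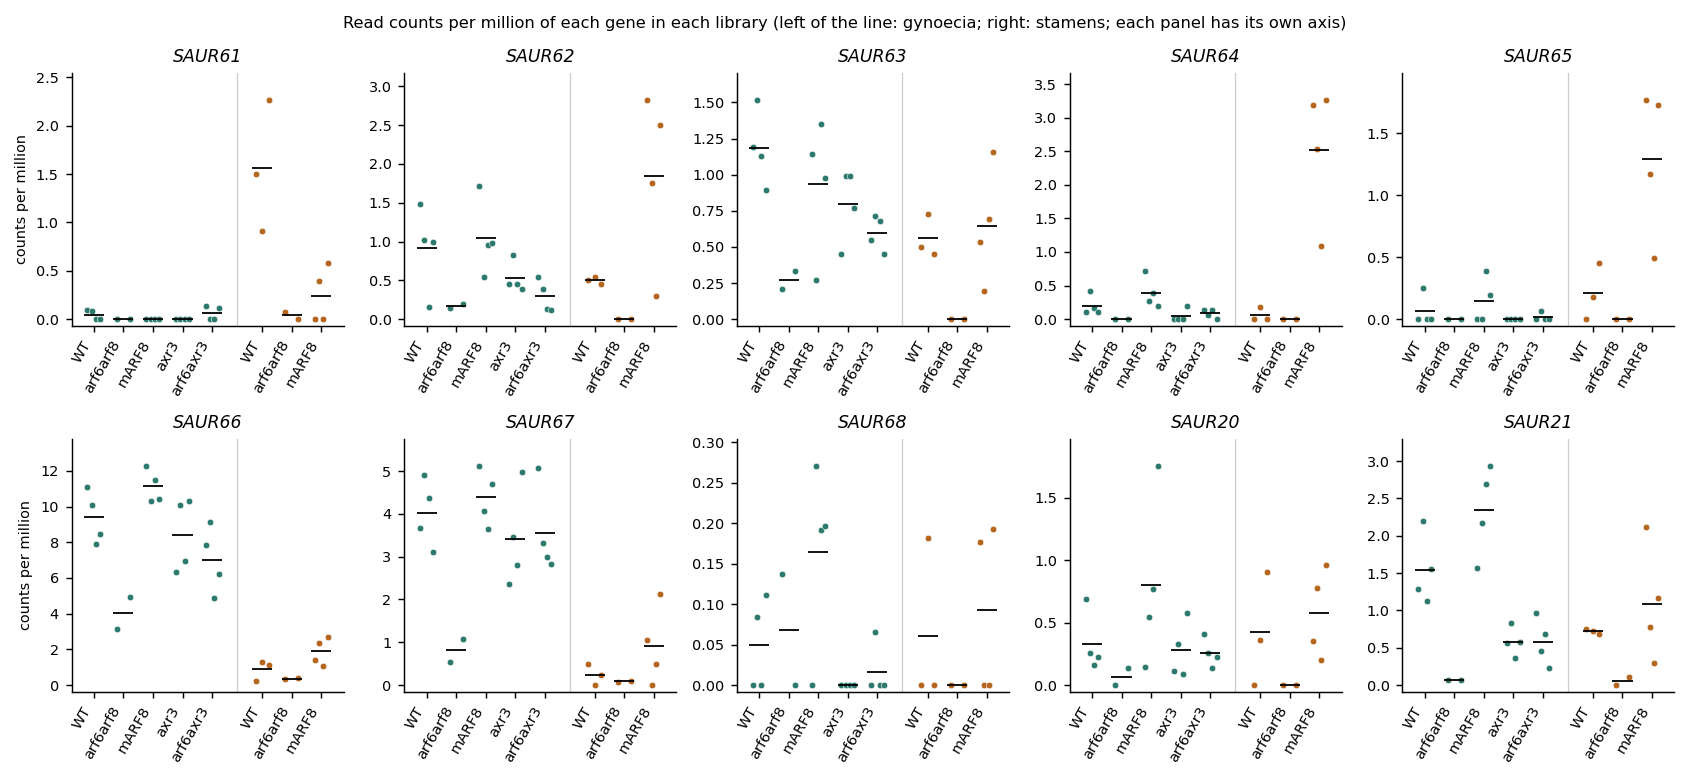
CPM of each of the 10 genes in each library (points) by genotype, with group means as bars, gynoecia left and stamens right of the line in each panel, each panel on its own linear axis. SAUR66 reached 7.93 to 11.1 CPM in wild-type and 3.15 and 4.93 in arf6arf8 gynoecia, SAUR61 0.907 to 2.27 CPM in wild-type stamens, and SAUR64 1.09 to 3.27 CPM in mARF8 stamens.

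SAUR61 was higher, and SAUR66 and SAUR67 lower, in wild-type stamens than in wild-type gynoecia. SAUR61 measured 1.5, 0.907 and 2.27 CPM in stamens and 0.0989, 0.0846, 0 and 0 CPM in gynoecia, a ratio of 28 in pooled reads (21 against 2 reads, 95% counting interval 6.84 to 246). SAUR66 measured 0.251, 1.27 and 1.13 CPM in stamens and 11.1, 10.1, 7.93 and 8.46 CPM in gynoecia. SAUR67 measured 0.501, 0 and 0.227 CPM in stamens and 3.66, 4.91, 4.37 and 3.12 CPM in gynoecia. The 2 tissues did not overlap in any of these 3 genes, and the share of all loci without such overlap was not computed.

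In edgeR's quasi-likelihood F test across all loci, with Benjamini-Hochberg adjustment and a threshold of 0.05, 3 of the 10 genes were called between the tissues, where 81% of all loci tested were called, 41.4% higher and 39.6% lower. The log2 fold change, stamens over gynoecia, was 5.15 (SE 0.88, adjusted p = 4.76e-05) for SAUR61, -2.65 (SE 0.37, adjusted p = 7.08e-07) for SAUR66 and -3.46 (SE 0.73, adjusted p = 0.00015) for SAUR67. SAUR62, SAUR64, SAUR65 and SAUR21 were tested and not called (adjusted p 0.175 to 0.757), and SAUR63, SAUR68 and SAUR20 did not pass the filter. SAUR65 was called without wild-type gynoecium replicate 2, which held all 3 of its gynoecium reads (adjusted p = 0.0217). SAUR61 passed the filter only through wild-type stamen replicates 1 and 3, so a higher call was the only one possible, and it was not tested when either was left out. Without a filter its adjusted p was 6.1e-05. Scaling mattered for this contrast: the composition factors of the 27 libraries ran from 0.696 to 1.17, and the summed cluster was 3.97-fold lower in stamens in pooled CPM and 2.41-fold lower after scaling. Much of this difference lay in SAUR66. Without SAUR66, the sum was 2.11-fold lower in stamens in pooled CPM and 1.25-fold lower after scaling, where the tissues overlapped. Beside SAUR61, the summed CPM of 8 late pollen markers was 12600 to 15600 in wild-type stamens (7 of 8 detected, GEX2 at 0) and 23 to 39.7 in wild-type gynoecia, and its part in the result was not tested.

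Gynoecia of arf6arf8 had lower levels of 5 of the 10 genes. By estimated fold SAUR21 was the most reduced and SAUR66 the least of the 5, and differences between genes were not tested. The comparison asks what the loss of both ARFs changes in the gynoecium. SAUR21 measured 0.0686 and 0.0666 CPM, 1 read in each arf6arf8 library, against 1.29, 2.2, 1.13 and 1.56 CPM in the wild type. SAUR67 measured 0.548 and 1.07 CPM against 3.66, 4.91, 4.37 and 3.12 CPM. SAUR63 measured 0.206 and 0.333 CPM against 1.19, 1.52, 1.13 and 0.891 CPM. In these 3 genes both mutant libraries lay below all 4 wild-type libraries. The share of all loci that separate in this way was not computed.

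SAUR66 measured 3.15 and 4.93 CPM in arf6arf8 gynoecia and 11.1, 10.1, 7.93 and 8.46 CPM in wild-type gynoecia. SAUR62 measured 0.137 and 0.2 CPM against 1.48, 1.02, 0.162 and 1 CPM. The groups did not overlap in SAUR66, whereas in SAUR62 wild-type replicate 3, with 1 read, lay between the mutant libraries. In pooled reads, SAUR21 was 23.9-fold lower (2 against 60 reads, 95% counting interval 6.34 to 202), SAUR62 5.9-fold (2.31 to 19.2), SAUR67 4.99-fold (3.23 to 8.03), SAUR63 4.49-fold (2.09 to 11) and SAUR66 2.37-fold (1.92 to 2.94).

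All 5 were called lower, where 4.97% of the 18616 loci tested were called lower and 11.2% in either direction. The log2 fold change in edgeR's quasi-likelihood F test was -4.25 for SAUR21 (SE 0.61, adjusted p = 0.000189), -2.25 for SAUR67 (SE 0.36, adjusted p = 0.000444), -1.19 for SAUR66 (SE 0.26, adjusted p = 0.00527), -2.06 for SAUR63 (SE 0.47, adjusted p = 0.00783) and -2.39 for SAUR62 (SE 0.68, adjusted p = 0.0288). SAUR62 and SAUR63 passed the filter through 1 wild-type and 1 mARF8 library each, so a lower call was the only one possible for them, whereas SAUR66 reached the filter's level in all 18 gynoecium libraries and SAUR67 and SAUR21 also in groups outside this comparison. The other 5 genes had few reads in both groups. SAUR64 had 8 reads in the wild type and 0 in arf6arf8, at least 2.13-fold lower against 3 reads over the group, SAUR20 had 13 and 2 reads (5.19-fold, 1.17 to 47.3), and SAUR61, SAUR65 and SAUR68 had at most 3 reads in each group.

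The 2 mutant libraries carry this result. Without arf6arf8 replicate 1, which leaves 1 mutant library assumed to vary like the other groups, 2 genes were called (SAUR21 and SAUR67) and the adjusted p was 0.131 for SAUR66, 0.132 for SAUR63 and 0.229 for SAUR62. Without arf6arf8 replicate 2, 3 genes were called, and the adjusted p was 0.0585 for SAUR63 and 0.159 for SAUR62. Without wild-type replicate 2 or 4, 3 of the 4 genes that still passed the filter were called, and the adjusted p of SAUR62 was 0.056 or 0.0535. Without wild-type replicate 1, all 3 genes that still passed the filter were called.

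**Figure D2:**
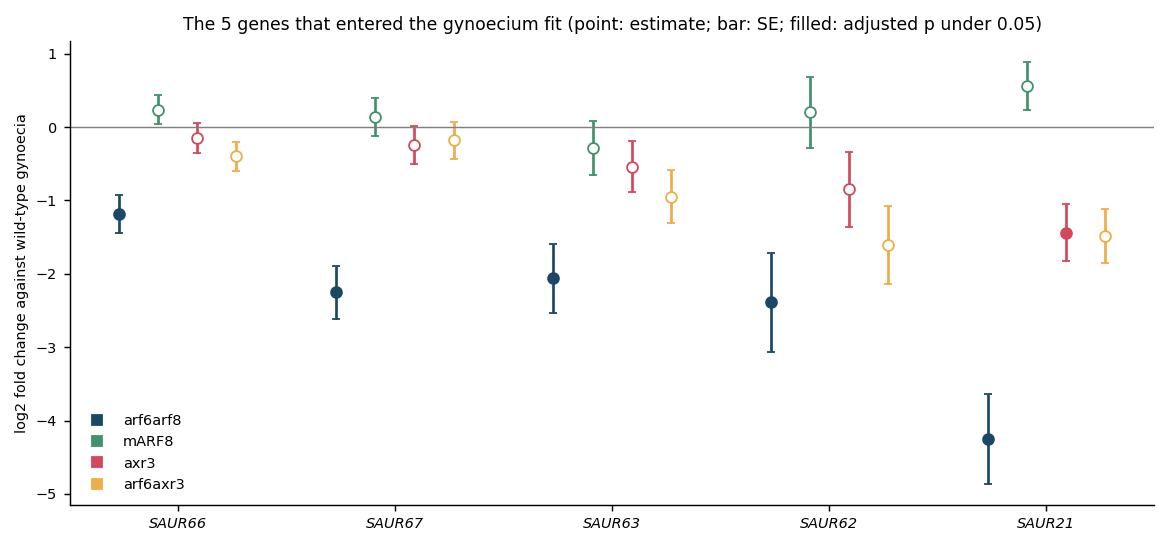
Log2 fold change against wild-type gynoecia (y axis; point, estimate of edgeR's quasi-likelihood fit; bar, SE; filled, adjusted p under 0.05) for the 5 genes that passed the filter in gynoecia, in arf6arf8, mARF8, axr3 and arf6axr3. The arf6arf8 estimates run from -4.25 to -1.19 and are all filled, and of the other 15 only SAUR21 in axr3, at -1.44, is filled. All 4 comparisons use the same wild-type libraries.

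Summed over the cluster, the level was also lower. It measured 4.18 and 6.53 CPM in arf6arf8 gynoecia, below all 4 wild-type libraries, at a log2 ratio of means of -1.53. Without SAUR66, the sum was 1.03 and 1.6 CPM against 5.23 to 8.29 CPM in the wild type, a log2 ratio of -2.26. SAUR66 made up 75.5% of the remaining 159 reads (68 to 81.9%). SAUR20 and SAUR21 together measured 0.0686 and 0.2 CPM against 1.98, 2.45, 1.3 and 1.78 CPM, a log2 ratio of -3.77. These sums carry no p-value. The stamen markers AP3 and PI summed to 28.9 to 30.1 CPM in arf6arf8 and 8.58 to 14.3 CPM in wild-type gynoecia, with both detected in each group, and their part in these results was not tested.

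**Figure D3:**
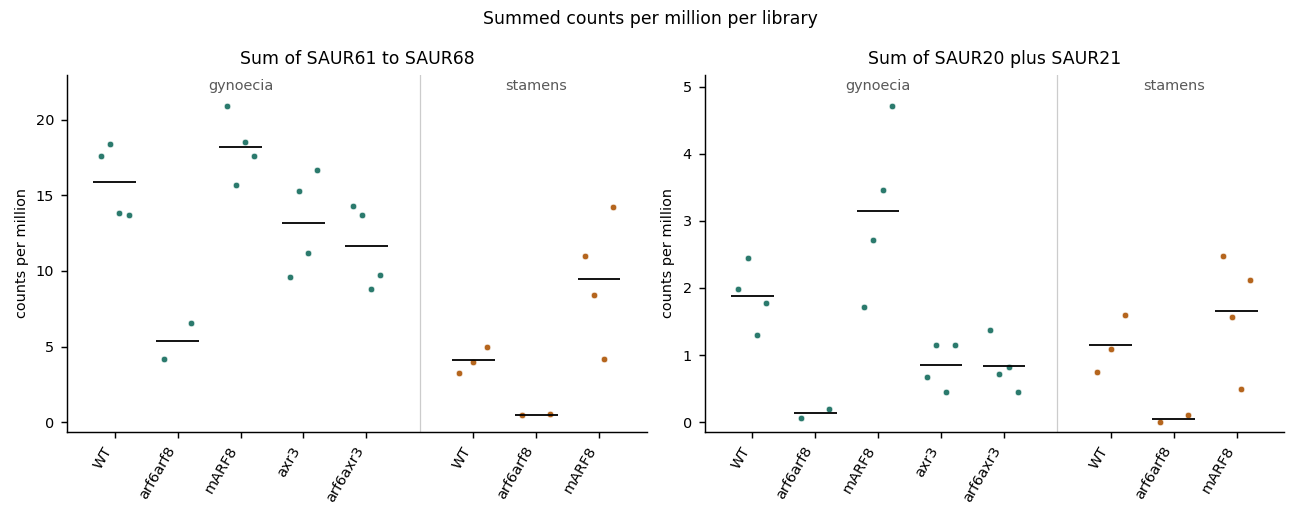
Summed CPM per library (points, linear axis) of the 8 cluster genes and of SAUR20 plus SAUR21 by genotype, with group means as bars. The cluster reached 13.7 to 18.4 CPM in wild-type and 4.18 and 6.53 in arf6arf8 gynoecia, and 3.26 to 4.99 CPM in wild-type and 0.472 and 0.514 in arf6arf8 stamens.

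Stamens of arf6arf8 held very few reads of these genes, and no gene was called. The summed cluster level was 0.472 and 0.514 CPM, from 6 and 5 reads, against 3.26, 3.99 and 4.99 CPM in wild-type stamens, from 13, 22 and 22 reads. SAUR20 plus SAUR21 measured 0 and 0.103 CPM against 0.752, 1.09 and 1.59 CPM. Neither sum overlapped between the groups, although the mutant libraries were the deeper ones (9718773 and 12723197 against 3989223 to 5512416 reads). In pooled reads the cluster was 8.36-fold lower (11 against 57 reads, 95% counting interval 4.34 to 17.7) and the pair 25.8-fold (1 against 16 reads, 4.01 to 1080).

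SAUR62, SAUR63, SAUR64, SAUR65, SAUR68 and SAUR20 had 0 reads in both arf6arf8 stamen libraries. Against 3 reads over the group, SAUR63 was at least 4.3-fold lower (8 wild-type reads), SAUR62 at least 3.76-fold (7 reads) and SAUR20 at least 3.23-fold (6 reads). SAUR61 measured 0.0786 and 0 CPM against 1.5, 0.907 and 2.27 CPM, and was 33.9-fold lower in pooled reads (1 against 21, 5.45 to 1400). SAUR21 measured 0 and 0.103 CPM against 0.752, 0.726 and 0.68 CPM, and was 16.1-fold lower (1 against 10 reads, 2.29 to 700). SAUR66 held 8 of the 11 cluster reads, at 0.314 and 0.412 CPM against 0.251, 1.27 and 1.13 CPM, with overlap.

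Only SAUR62, SAUR64 and SAUR66 passed the filter in stamens, and 0 of the 10 genes were called in arf6arf8, where 4.39% of 18828 loci were called. Their adjusted p was 0.172, 0.472 and 0.271 in edgeR's quasi-likelihood F test, and SAUR66 had a log2 fold change of -1.45 (SE 0.66). Without a filter, SAUR61 and SAUR63 came nearest to the threshold (adjusted p 0.0619 and 0.0646), and DESeq2 called 0 of the 10. The share of 4.39% is from the fit that included mARF8 stamens. With only the groups compared, 3530 of 17967 loci were called. In edgeR 1 gene, SAUR62, had an unadjusted p under 0.05, and the share of all loci at that level was not computed. None of the 7 genes tested had a called difference between the arf6arf8 effects in stamens and gynoecia, where 6.65% of 20665 loci had one. For this difference 0 genes had an unadjusted p under 0.05, and DESeq2 called 0. Its SE was 11.6 for SAUR61, 1710 for SAUR64 and 6000 for SAUR65. These genes had at most 1 read in each arf6arf8 group, so their tests could not decide the question. The interaction of SAUR66 was -0.29 (SE 0.63, adjusted p = 0.839). These p-values do not show that the effects were alike. The summed CPM of the late pollen markers was 9440 and 11000 in arf6arf8 stamens and 12600 to 15600 in the wild type, that of 11 tapetum markers 125 to 135 against 49.2 to 75.1, and that of 7 heat shock genes 112 and 178 against 15.6 to 59.4. Their part in these values was not tested.

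Stamens of mARF8 showed more SAUR64 than wild-type stamens, together with another makeup of the cluster. SAUR64 measured 3.19, 2.54, 1.09 and 3.27 CPM in mARF8 stamens against 0, 0.181 and 0 CPM in the wild type, with no overlap, and 59 reads against 1 gave a ratio of 31.5 (95% counting interval 5.44 to 1260). SAUR65 measured 1.77, 1.17, 0.495 and 1.73 CPM against 0, 0.181 and 0.453 CPM, also without overlap (30 against 3 reads, ratio 5.34, 1.66 to 27.3). SAUR62 measured 2.83, 1.76, 0.297 and 2.5 CPM against 0.501, 0.544 and 0.453 CPM, with replicate 3 below the wild type and the other 3 above it. SAUR61 went the other way, with 0, 0.39, 0 and 0.578 CPM against 1.5, 0.907 and 2.27 CPM and no overlap.

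The 3 genes tested, SAUR62, SAUR64 and SAUR66, passed the filter only through mARF8 libraries, so a higher call was the only one possible and the count called is not read as a result. SAUR64 was called (log2 fold change 4.64, SE 0.87, edgeR adjusted p = 0.00772, and 0.0066 without a filter), where 37% of loci were called and 20.4% called higher. SAUR62 had a log2 fold change of 1.59 (SE 0.81, adjusted p = 0.15) and SAUR66 of 0.81 (SE 0.5, adjusted p = 0.224). Without mARF8 replicate 3, SAUR62 was also called (log2 fold change 2.01, adjusted p = 0.00784). Without a filter on low counts, SAUR61 was called lower (log2 fold change -2.99, adjusted p = 0.0313), and SAUR65 had an adjusted p of 0.0788. Among libraries numbered up to 23 in their titles, SAUR64 was not called (log2 fold change 4.06, adjusted p = 0.0696). With the 2 libraries of line 3B alone, or under a filter of 5 CPM, SAUR64 was not tested and no gene was called.

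The summed cluster level in mARF8 stamens was 11, 8.39, 4.16 and 14.2 CPM, and the group overlapped the wild type through replicate 3. The log2 ratio of means was 1.03. Replicate 3 had the lowest level of SAUR62, SAUR64, SAUR65, SAUR66, SAUR20 and SAUR21 in the group. SAUR64 contributed 26.7% of the 221 reads (21 to 33%), SAUR66 20.4%, SAUR62 18.6% and SAUR65 13.6%, whereas SAUR61 contributed 2.26% (0.739 to 5.2%) in place of 36.8%. SAUR20 plus SAUR21 measured 2.48, 1.56, 0.495 and 2.12 CPM against 0.752, 1.09 and 1.59 CPM, and overlapped the wild type.

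**Figure D4:**
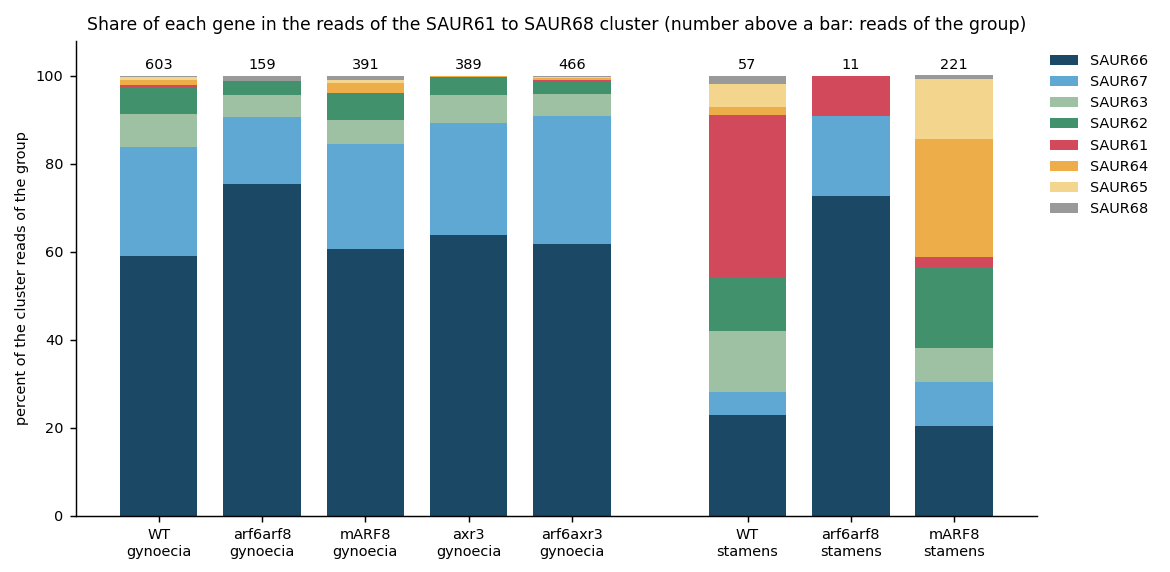
Share of each gene in the summed reads of the cluster (y axis, percent, stacked) by group, with the number of reads above each bar. SAUR66 is 59 to 75.5% of the reads in the 5 gynoecium groups, SAUR61 is 36.8% in wild-type stamens and 2.26% in mARF8 stamens, and the arf6arf8 stamen bar rests on 11 reads.

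In gynoecia SAUR64 was low in both mARF8 and wild-type plants. It measured 0.712, 0.271, 0.384 and 0.196 CPM in mARF8 plants against 0.0989, 0.423, 0.162 and 0.111 CPM in the wild type, with overlap. The interaction, the mARF8 effect in stamens over that in gynoecia, was 3.73 on the log2 scale (SE 1.28, edgeR adjusted p = 0.0366), the only one called among the 10 genes, where 25.8% of loci had a called interaction and 14.1% a positive one. SAUR64 entered this fit only through mARF8 stamens, so a positive call was the only one possible, and the adjusted p without a filter was 0.0465. This call was lost when any of 8 single libraries was left out, with adjusted p from 0.0508 to 0.169. The 8 are wild-type gynoecium replicate 2, mARF8 gynoecium replicates 2, 3 and 4, wild-type stamen replicates 1 and 3, and mARF8 stamen replicates 1 and 4. DESeq2 called 0 of the 10.

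Other transcripts moved in the same stamen libraries. The late pollen markers summed to 1110 to 7950 CPM in mARF8 stamens and 12600 to 15600 in wild-type stamens. Of these markers 7 of 7 tested were called lower, where 37% of all loci were called in either direction. The tapetum markers summed to 127 to 659 CPM against 49.2 to 75.1, with MYB80 at 0. Of the tapetum markers 3 of 6 tested were called higher, where 20.4% of all loci were called higher. Heat shock genes summed to 99.5, 510, 51.9 and 107 CPM in mARF8 replicates 1 to 4, against 15.6 to 59.4 in the wild type. The part of these differences in the SAUR values was not tested.

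In mARF8 gynoecia none of the 5 genes that passed the filter was called against the wild type. SAUR66 measured 12.3, 10.3, 11.5 and 10.4 CPM, SAUR67 5.13, 4.06, 3.65 and 4.71 CPM, and SAUR21 1.57, 2.17, 2.69 and 2.94 CPM, each group overlapping the wild type. In edgeR 0.688% of all loci were called, none of the 5 genes had an unadjusted p under 0.05, and DESeq2 called 0. Among these 5 the largest estimate was 0.56 for SAUR21 (log2, SE 0.33, edgeR adjusted p = 0.505), followed by -0.28 for SAUR63 (SE 0.37), 0.24 for SAUR66 (SE 0.2), 0.2 for SAUR62 (SE 0.48) and 0.14 for SAUR67 (SE 0.26). The summed cluster level was 20.9, 15.7, 18.5 and 17.6 CPM, within reach of the wild type (13.7 to 18.4 CPM), although ARF8 itself was higher in every mARF8 library. SAUR20 plus SAUR21 measured 1.71, 2.71, 3.46 and 4.71 CPM against 1.98, 2.45, 1.3 and 1.78 CPM, with 3 of 4 mARF8 libraries above the wild type and 1 within it, and a ratio of 1.55 in pooled reads (95% counting interval 1.09 to 2.19). Without a filter, the 5 low-count genes had log2 fold changes from -2.23 (SAUR61) to 1.23 (SAUR68) and SAUR20 of 1.13, and none was called (adjusted p up to 0.89).

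In axr3 gynoecia SAUR21 was lower, and no cluster gene was called. SAUR21 measured 0.563, 0.825, 0.361 and 0.575 CPM against 1.29, 2.2, 1.13 and 1.56 CPM in the wild type, without overlap (log2 fold change -1.44, SE 0.39, edgeR adjusted p = 0.0155). It was 1 of the 10 genes called, where 15.7% of loci were called and 7.06% called lower. The call was lost without wild-type replicate 2 (adjusted p = 0.0677) or axr3 replicate 3 (adjusted p = 0.0607), and among libraries numbered up to 23, or from 26, in their titles the log2 fold change was -1.33 (adjusted p = 0.17) or -1.56 (adjusted p = 0.207). SAUR66 measured 6.31, 10.1, 6.96 and 10.3 CPM and SAUR67 2.37, 3.46, 2.8 and 4.98 CPM, both overlapping the wild type. The 4 cluster genes tested had adjusted p from 0.29 to 0.678 and log2 fold changes from -0.85 (SAUR62) to -0.15 (SAUR66). SAUR20 plus SAUR21 measured 0.676, 1.15, 0.452 and 1.15 CPM against 1.3 to 2.45 CPM in the wild type, without overlap, while the summed cluster (9.58, 15.3, 11.2 and 16.7 CPM) overlapped it. The gynoecium markers summed to 235 to 364 CPM in axr3 and 473 to 503 in the wild type, and the stamen markers to 14.5 to 26.2 against 8.58 to 14.3, all detected in each group, and their part in the SAUR21 value was not tested.

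With arf6 added to axr3, no gene of the 10 passed the test against either control. In arf6axr3 gynoecia SAUR21 measured 0.96, 0.455, 0.679 and 0.226 CPM, below all wild-type libraries, with a log2 fold change of -1.48 (SE 0.37, edgeR adjusted p = 0.0521). It was called without arf6axr3 replicate 1 (adjusted p = 0.0264) and with line 25-2 alone (adjusted p = 0.0345). None of the 10 genes was called against the wild type, where 1.72% of loci were, nor against axr3, where 8.56% were. At an unadjusted p under 0.05 the counts were 3 (SAUR62, SAUR63 and SAUR21) and 0, and DESeq2 called 0 in both. SAUR62 and SAUR63 passed the filter only through wild-type and mARF8 libraries, so lower than the wild type was the only outcome possible for them. The share of all loci at that unadjusted level was not computed, and the 3 are not read as a result. SAUR66 measured 7.82, 9.11, 4.89 and 6.21 CPM (log2 fold change against the wild type -0.4, SE 0.2) and SAUR62 0.549, 0.39, 0.136 and 0.113 CPM (-1.61, SE 0.53, adjusted p = 0.166). Against axr3, the log2 fold change of SAUR21 was -0.03 (SE 0.44) and that of SAUR67 0.06 (SE 0.26), and neither direction was stable when single libraries were left out. ARF6 averaged 58.8 CPM in arf6axr3 and 466 in axr3, and AXR3 31.2 and 72.6. The gynoecium markers summed to 310 to 462 CPM in arf6axr3, and the stamen markers to 15.5 to 29 CPM.

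The genes of the cluster did not vary as a single unit across libraries. Over the 27 libraries the log2 CPM of SAUR66 and SAUR67 correlated with r = 0.823, and that of SAUR64 and SAUR65 with r = 0.86. SAUR61 and SAUR66 correlated with r = -0.505 over both tissues, but with r = 0.0673 within gynoecia and 0.104 within stamens. Within the 18 gynoecium libraries SAUR66 and SAUR67 correlated with r = 0.844, and within the 9 stamen libraries with r = 0.23. SAUR62, a cluster gene, and SAUR21, from chromosome 5, correlated with r = 0.76 (0.721 in gynoecia, 0.918 in stamens). These are descriptions, since the libraries share tissue and genotype, and SAUR63 and SAUR67 may share reads.

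Among 18325 other loci, those whose log2 CPM followed the cluster sum most closely over the 27 libraries were PME44 (r = 0.939), KAT5 (r = 0.937), FNR2 (r = 0.927), EXPB3 (r = 0.925) and AT1G04680 (r = 0.923). Within gynoecia alone these correlations were 0.632 to 0.769. For SAUR20 plus SAUR21 they were AT5G07770 (r = 0.866), AT3G51150 (r = 0.838) and IAA7 (r = 0.82), with 0.867 to 0.931 within gynoecia.

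The other 69 annotated SAUR genes behaved differently from one another. In arf6arf8 gynoecia 5 of 24 tested were called higher and 1 lower, with a median log2 fold change of 0.23 against -0.01 over all loci, where 11.2% of loci were called. SAUR72 rose by 1.73 (SE 0.29) and SAUR78 by 2.42 (SE 0.41) on the log2 scale, with averages of 10.4 and 37.1 CPM against 3.17 and 6.93, while SAUR52 fell by 1.92 (SE 0.43). SAUR50 rose by 0.65 (SE 0.14). Without arf6arf8 replicate 1 or 2, SAUR50 (adjusted p = 0.0678 and 0.0556) and SAUR52 (0.0943 and 0.0692) were not called. In arf6arf8 stamens 2 of 30 were called higher and 4 lower, where 4.39% of all loci were called. That fit included the mARF8 stamens. With only the groups compared 3530 of 17967 loci were called, and the 30 genes were not counted there. SAUR72 rose by 2.92 (SE 0.32), and SAUR35 fell by 5.99 (SE 0.66), from 16.6 to 0.284 CPM on average. SAUR25 had 103 reads in wild-type and 0 in arf6arf8 stamens. The adjusted p of these genes in edgeR's quasi-likelihood F test ran from 0.000722 to 0.00679.

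In mARF8 stamens 5 of 30 other SAUR genes were called higher and 8 lower, a share near the 37% of all loci called. SAUR42 stood at a log2 fold change of 2.79 (SE 0.49) and SAUR47 at -4.22 (SE 0.59). SAUR35 fell by 3.38 (SE 0.42) and SAUR36 by 2.21 (SE 0.39). SAUR47 and SAUR36 passed the filter only through wild-type stamens, so a lower call was the only one possible. In axr3 gynoecia, where 15.7% of loci were called, 3 of 24 were called higher, SAUR37 (5.31, SE 0.44), SAUR57 (3.87, SE 0.53) and SAUR31 (3.43, SE 0.26), and 2 lower, among them SAUR4 (-0.7, SE 0.2). The call of SAUR4 was lost without wild-type replicate 2 (adjusted p = 0.0815), axr3 replicate 2 (0.0642) or axr3 replicate 4 (0.0634). SAUR37 and SAUR57 passed the filter only through axr3. For them, higher was the only call possible against the wild type, and lower the only one in arf6axr3 against axr3. Against axr3, where 8.56% of loci were called, arf6axr3 gynoecia had lower SAUR37 (3 against 232 reads), SAUR57 (-3.27, SE 0.49) and SAUR31 (-1.85, SE 0.22), and higher SAUR51 (0.52, SE 0.11). SAUR37 averaged 0.188 CPM in wild-type, 7.87 in axr3 and 0.0968 in arf6axr3 gynoecia. The call of SAUR51 was lost with line 25-2 alone (edgeR adjusted p = 0.111) and from library 26 on (0.0819). In arf6axr3 against the wild type, where 1.72% of loci were called, SAUR31 was the 1 of 24 called, and higher (1.58, SE 0.28). With line 15-5 alone SAUR31 was not called (edgeR adjusted p = 0.0957).

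Between wild-type tissues, 20 of 40 other SAUR genes tested were called higher and 10 lower in stamens, where 81% of all loci were called. SAUR49 (5.55, SE 0.33), SAUR70 (5.49, SE 0.31) and SAUR41 (5.06, SE 0.32) were higher in stamens and SAUR54 (-3.4, SE 0.21) lower, on the log2 scale. SAUR49 averaged 179 CPM in stamens and 6.23 in gynoecia.

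The phosphatases and pumps downstream of SAUR proteins were called in both directions. In arf6arf8 gynoecia, where 11.2% of loci were called, 1 of 9 PP2C.D genes was called, AT4G38520 (0.37, SE 0.11, higher), and of 11 proton pump genes HA4 was lower (-1.13, SE 0.17) and HA1 higher (0.6, SE 0.1). The call of AT4G38520 was lost when any of the 6 libraries compared was left out (adjusted p 0.058 to 0.19). In arf6arf8 stamens, where 4.39% of loci were called, AT3G55050, a PP2C.D gene, was lower (-0.8, SE 0.18), HA7 lower (-1.63, SE 0.3) and HA11 higher (0.78, SE 0.15). With a replicate block none of these 3 was called (adjusted p = 0.066, 0.072 and 0.0861). With single libraries left out, AT3G55050 was lost in 5 of 5 cases (adjusted p 0.0583 to 0.303), HA7 in all but the case without wild-type replicate 3 (0.0537 to 0.206 where lost), and HA11 in all but the case without wild-type replicate 2 (0.0931 to 0.22 where lost).

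In mARF8 stamens 2 of 8 PP2C.D genes tested were called higher and 2 lower, among them AT5G66080 (1.87, SE 0.41) and AT3G55050 (-1.28, SE 0.14), and 3 of 11 pumps higher and 2 lower, HA2 (1.14, SE 0.17) and HA11 (0.98, SE 0.13) among the higher, where 37% of loci were called. AT5G66080 was not called without wild-type stamen replicate 3 (adjusted p = 0.0516). HA11 was also higher in mARF8 gynoecia (0.44, SE 0.07) and in axr3 gynoecia (0.27, SE 0.07), where HA3 rose by 2.07 (SE 0.19). Against axr3, where 8.56% of loci were called, 3 of the 11 listed pumps were lower in arf6axr3 gynoecia. Among them were HA3 (-1.4, SE 0.18) and HA9, with 10 against 473 reads. HA9 had a median of 5.13 and a highest value of 46 CPM in axr3, and its call was lost without axr3 replicate 1 (log2 fold change -3.6, adjusted p = 0.142) or arf6axr3 replicate 2 (-5.77, adjusted p = 0.062), with either arf6axr3 line alone (adjusted p = 0.167 and 0.113), and from library 26 on (-0.24, adjusted p = 0.963). The late pollen markers summed to 12.8 to 126 CPM in axr3 and 20.8 to 39.5 in arf6axr3 gynoecia, and their part in the HA9 value was not tested. Between wild-type tissues 5 of 9 phosphatases and 8 of 11 pumps were higher in stamens, where 41.4% of loci were, with AT3G12620 (3.16, SE 0.17) and AT3G55050 (2.29, SE 0.11), and HA3 (4.39, SE 0.23) and HA7 (4.24, SE 0.24), having the smallest adjusted p.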

How the data were processed

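Messenger RNA of 27 stamen and gynoecium libraries was sequenced as single-end reads of 50 bases (TruSeq kit, HiSeq instrument, per the labels' protocols). The deposited files hold raw read counts for 33602 loci per library. TopHat2, HTSeq, edgeR and the TAIR10 build are named in the submitters' processing notes, while versions, strand setting and treatment of reads with several matches are not given in the sources used here. Groups were taken from sample titles, and 0 count columns were left unmapped.

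The tests used edgeR 4.0.16 and limma 3.58.1 under R 4.3.3, with trimmed-mean (TMM) scaling, edgeR's filterByExpr filter (minimum count 10, minimum total 15), the quasi-likelihood F test and Benjamini-Hochberg adjustment over all loci tested, with calls below 0.05. The SE is the absolute log2 fold change divided by the square root of F. Stamens (9 libraries, 18828 loci), gynoecia (18 libraries, 18616 loci) and all 27 libraries (20665 loci, for tissue differences and interactions) were fitted separately. CPM values used the library's total count. Sums were compared as ratios of TMM-scaled mean CPM, without a test. Ratios of pooled reads have exact 95% intervals, which, like the floor of 3 reads, cover counting error only. The scripts were tested on simulated data.

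All 10 genes were named throughout, and of other SAUR genes up to 4, and of phosphatases and pumps up to 2, called loci with the smallest adjusted p per comparison. The genes most like each sum were those with the highest Pearson r among loci whose log2 CPM averaged 1 or more (prior count 2). The members and gene lists were chosen with earlier results of these data known. Alternatives were other scaling factors, no filter or a filter of 5 CPM, DESeq2 1.42.0, a replicate block, only the groups compared, single lines, libraries by number in the title, and each library left out. Coordinates and sequences are RefSeq's for TAIR10.1.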

Additional observations from a re-analysis of the deposited data

Results flagged for a closer look

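SAUR62 in axr3 gynoecia had 1 library, replicate 2 at 0.825 CPM, far from the other 3 (0.383 to 0.452 CPM). The reads were 4, 5, 5 and 2 in replicates 1 to 4. Replicates 2 and 3 had equal counts, from totals of 6062415 and 11066943 reads, and counting error is large at such counts. Replicate 2 was the 1 outlier among 46 series of 4 libraries checked, where chance marks about 1 in 20. A further 19 series with under 10 reads were not checked.

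Effects that differed between stamens and gynoecia are given as interactions on the log2 scale, from edgeR's quasi-likelihood F test with adjusted p below 0.05. Among the 10 genes, that of mARF8 on SAUR64 was 3.73. SAUR64 passed the filter only through mARF8 stamens, so a positive call was the only one possible, and the call was lost in 8 of 15 cases with 1 library left out and in DESeq2. For arf6arf8, the interaction was -6.95 for SAUR35, -6.87 for SAUR19, -3.15 for SAUR6 and -4.1 for SAUR5. SAUR19 had 0 reads in arf6arf8 stamens and SAUR5 0 reads in wild-type gynoecia, so the fitted values of these 2 genes are not bounds. With single libraries left out, the call was lost in 0 of 11 cases for SAUR35, 4 of 11 for SAUR19 (adjusted p up to 0.146), 5 of 11 for SAUR6 (up to 0.207) and 8 of 11 for SAUR5 (up to 0.191). SAUR6 was also not called with a replicate block (adjusted p = 0.0534), in DESeq2 (0.0722) or without a filter (0.0514). It was -0.94 for AT3G55050, 1.92 for HA4 and 0.74 for HA11.

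For mARF8, the interaction was 1.66 for SAUR54, -3.77 for SAUR33, -1.58 for SAUR31 and -1.78 for SAUR70. Among phosphatases it was -1.45 for AT3G55050 and -1.13 for AT3G12620, and among pumps -3.09 for HA8 and -0.61 for HA1. ARF8 itself had an interaction of 1.16 and AXR3 of 1.43. The call was lost for SAUR31 without mARF8 gynoecium replicate 2 (-1.16, adjusted p = 0.0508) or wild-type stamen replicate 2 (-1.29, adjusted p = 0.052), and for AXR3 without wild-type stamen replicate 3 (1.13, adjusted p = 0.0891).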

How the results depend on the processing

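Depth limits these genes: with 3 reads equal to 0.195 to 0.812 CPM, SAUR61, SAUR64, SAUR65, SAUR68 and SAUR20 were near or under the floor in most groups. Leaving out 1 of 2 arf6arf8 libraries leaves a lone sample assumed to vary like the other groups. The replicate block left the count of the 10 genes called as it was in every comparison (5 in arf6arf8 gynoecia), and same-numbered libraries correlated at -0.093 to 0.29 in their deviations, so the numbers were not taken as pairs. SAUR21 and SAUR67 stayed called in arf6arf8 gynoecia under every alternative that tested them (highest adjusted p 0.00973 and 0.02).

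With single libraries left out, the number of genes called ranged from 2 to 5 in arf6arf8 gynoecia, 0 to 1 in axr3 and in arf6axr3 gynoecia against the wild type, 0 to 1 for the mARF8 interaction, 1 to 2 in mARF8 stamens and 2 to 4 between wild-type tissues. A filter of 5 CPM, which left fewer genes tested, gave 2 in arf6arf8 gynoecia and 0 in axr3 gynoecia, mARF8 stamens and the mARF8 interaction. Libraries numbered up to 23 gave 0 in the latter 3, as did line 3B alone in mARF8 stamens and the interaction, and libraries from 26 gave 0 in axr3 gynoecia and the interaction. DESeq2 gave 0 for the interaction, no filter 2 in mARF8 stamens, and line 25-2 alone 1 in arf6axr3 gynoecia. The causes were not tested.

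The log2 ratio of SAUR20 plus SAUR21 in arf6arf8 gynoecia ranged from -4.73 to -3.2 with single libraries left out, and arf6arf8 stamens without replicate 2 gave no value. It was 0.25 and 1.59 in mARF8 gynoecia, and -0.65 and 0.77 between tissues, for libraries up to 23 and from 26. The cluster gave -1.69 and -0.73 between tissues for the same sets.

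Reversals were seen only in genes not called, besides the sum above. For SAUR21, arf6axr3 against axr3 ranged from -0.33 to 0.2 with single libraries left out, and was 0.31 from library 26 on and 0.52 in line 15-5. Its interactions ranged from -1.9 to 1.37 (arf6arf8) and -0.88 to 0.11 (mARF8). SAUR62 in mARF8 gynoecia ranged from -0.08 to 0.36 and was -0.09 up to library 23. SAUR62 between tissues ranged from -0.52 to 0.06 and was 0.23 from library 26 on. SAUR64 in arf6arf8 stamens ranged from -2.95 to 0, and the mARF8 interaction of SAUR65 from -0.99 to 2.48. The arf6arf8 interaction of SAUR66 ranged from -0.66 to 0.07, its mARF8 interaction was 0 in line 3B, and its axr3 effect 0.08 from library 26 on. SAUR67 in arf6axr3 against axr3 ranged from -0.12 to 0.29, and was -0.11 from library 26 on and -0.12 in line 25-2. Against the wild type it was 0.01 in arf6axr3 line 15-5 and 0.06 in axr3 from library 26 on.

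Over all loci, the count called in arf6arf8 stamens (826) was 1375 with DESeq2, 3530 with only the compared groups and 287 up to library 23. In mARF8 gynoecia (128) it was 335 with DESeq2 and 257 with the replicate block, and in arf6axr3 gynoecia against the wild type (320) it was 507 with DESeq2. With fewer libraries the counts were lower: up to library 23, 1315 against 2077 in arf6arf8 gynoecia, 1325 against 6961 in mARF8 stamens, 3 against 128 in mARF8 gynoecia, 1105 against 2929 in axr3, 542 against 1374 and 840 against 5338 for the arf6arf8 and mARF8 interactions. From library 26 on they were 1 in mARF8 gynoecia, 1445 in axr3, 115 in arf6axr3, 2721 for the mARF8 interaction and 721 against 1593 for arf6axr3 against axr3. Line 15-5 gave 85 and 797 in arf6axr3 against the wild type and against axr3, line 25-2 gave 765 in the latter, and line 3B 3289 for the mARF8 interaction. Scaling moved the share of higher calls from 43.1 to 25.9% with median-of-ratios factors for the arf6arf8 interaction, and from 54.7 to 68.3% with upper-quartile factors and 43.7% with DESeq2 for the mARF8 interaction. No gene of the 10 that was called changed direction under these scalings.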
